A study of Mus musculus with 4 samples.

Results

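Peaks of N6-methyladenosine (m6A) in first introns were examined, meaning peaks whose summit lay in no annotated exon and between exon 1 and exon 2 of a single protein-coding gene. There were 590 such peaks of 15635 in m6A immunoprecipitation (IP) replicate 1 (3.77%) and 535 of 14872 in replicate 2 (3.60%). Exon 1 and exon 2 were those of the transcript with the longest coding sequence, and a further 16 and 18 summits that lay in the first introns of several genes were left out. The members fell in 518 genes in replicate 1 and 468 in replicate 2, of 20302 protein-coding genes that have a first intron. A gene usually held a single member, which was so for 484 genes in replicate 1 and 429 in replicate 2.

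The RNA came from foetal liver of C57BL/6 background, from cells that were enriched on magnetic beads for Kit, the stem cell factor receptor of blood stem and progenitor cells. Per the study's methods all cells were of the Ythdf2 CTL (fl/fl) genotype, in which exon 2 of the reader gene Ythdf2 is flanked by loxP sites and GFP is fused to YTHDF2, so there is neither a treatment nor a second genotype to compare. The series holds 2 IP and 2 input samples, labelled total RNA and polyA RNA, and the peak lists of the 2 IP replicates were analysed here. The age of the embryos and the number pooled are not given in the sources used here. A peak with its summit in an exon or in the first intron was present for 8 of 10 markers of Kit+ stem and progenitor cells in each replicate. The same 8 genes, Cd34, Cd47, Gata2, Gfi1b, Lmo2, Runx1, Tal1 and Zfpm1, had one in both replicates. Kit itself and Myb had none. Such a peak was also present for 3 and 4 of 10 hepatocyte markers, for 3 and 2 of 10 macrophage markers and for 2 of 8 endothelial markers in each replicate. Over all genes with a first intron, 6515 of 20302 (32.1%) had an exonic peak in both replicates, which is a stricter measure. Of all these markers, only Eng of the endothelial list had a first-intron member in both replicates. Peak lists give no expression level, so the part of other cell types in the results was not tested.

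m6A is placed on nascent transcripts by a METTL3-METTL14 writer complex, mostly at adenosines within the motif GGAC or close relatives of it. In mature mRNA it is known from long internal exons and from the region of the stop codon, and YTHDF2 is a cytoplasmic reader that promotes decay of the marked mRNA. Introns are removed while the transcript is being made, so intronic fragments are scarce in mature mRNA and belong mostly to unspliced transcripts or to introns that are kept. The first intron is often the longest of a gene and opens with the 5′ splice site next to exon 1, and it closes with a polypyrimidine tract and the letters AG in front of exon 2.

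The sequences at 11 summits are shown as examples of summits near the end of the intron and summits further within it. They run from 50 nt before to 50 nt after the replicate 1 summit or to the end of the intron, 5′ to 3′ on the gene strand of GRCm38, with GGAC in capitals. The first 6 have their summit within 200 nt upstream of exon 2. They are chr3:144577524-144577585 (plus strand) for Selenof, chr7:43452271-43452340 (plus strand) for Etfb, chr4:117022082-117022154 (plus strand) for Eif2b3, chr3:93523984-93524050 (plus strand) for S100a11, chr8:22653196-22653296 (minus strand) for Polb and chr5:96797280-96797380 (plus strand) for Anxa3.
Selenof: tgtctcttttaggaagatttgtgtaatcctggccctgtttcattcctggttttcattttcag
Etfb: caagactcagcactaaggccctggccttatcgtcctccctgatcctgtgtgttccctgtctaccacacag
Eif2b3: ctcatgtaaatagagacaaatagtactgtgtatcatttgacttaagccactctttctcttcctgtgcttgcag
S100a11: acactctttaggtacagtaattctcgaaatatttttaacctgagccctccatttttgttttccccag
Polb: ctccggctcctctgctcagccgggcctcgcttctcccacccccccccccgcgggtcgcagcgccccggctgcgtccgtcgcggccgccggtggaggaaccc
Anxa3: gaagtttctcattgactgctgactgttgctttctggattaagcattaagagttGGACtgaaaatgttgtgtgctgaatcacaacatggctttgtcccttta
Of these 6 printed runs, 1, that of Anxa3, held GGAC. The run of Etfb is cut off at exon 2, and its full window of 50 nt on either side, which reaches into the exon, held GGAC too. The runs of Selenof, Etfb, Eif2b3 and S100a11 stop at the last base of the intron, and these 4 end in the letters of the 3′ splice site, behind a stretch rich in t and c. The other 5 windows lie further inside the intron, at chr13:75708280-75708380 (plus strand) for Ell2, chr11:30900727-30900827 (plus strand) for Asb3, chr4:11486579-11486679 (plus strand) for Virma, chr8:23028110-23028210 (plus strand) for Ank1 and chr9:32532573-32532673 (minus strand) for Fli1.
Ell2: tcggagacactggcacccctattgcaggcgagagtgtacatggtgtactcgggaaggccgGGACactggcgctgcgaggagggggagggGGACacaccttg
Asb3: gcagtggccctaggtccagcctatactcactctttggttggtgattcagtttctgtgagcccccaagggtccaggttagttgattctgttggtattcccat
Virma: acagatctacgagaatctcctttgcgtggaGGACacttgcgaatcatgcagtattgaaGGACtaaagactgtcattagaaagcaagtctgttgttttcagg
Ank1: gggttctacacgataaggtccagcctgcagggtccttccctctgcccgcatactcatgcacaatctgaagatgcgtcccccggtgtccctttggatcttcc
Fli1: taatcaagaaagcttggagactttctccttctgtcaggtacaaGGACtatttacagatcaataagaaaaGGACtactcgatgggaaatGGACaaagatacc
Ell2 and Virma held 2 copies of GGAC each and Fli1 held 3, while Asb3 and Ank1 held none on the gene strand but had it on the opposite strand.

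The summits gathered in front of exon 2. In replicate 1, 300 of 590 summits (50.8%, exact 95% interval 46.7 to 55.0) lay within 200 nt upstream of exon 2, and in replicate 2 it was 284 of 535 (53.1%, 48.7 to 57.4). Within 50 nt of exon 2 lay 38.5% and 38.9%. The bases within 200 nt of an end of the intron made up 1.05% and 1.09% of the length of the host introns, Gm20388 left out. At the other end, 14.6% and 14.2% of summits lay within 200 nt downstream of exon 1. In introns after the first, 32.5% of 747 summits in replicate 1 and 33.7% of 701 in replicate 2 lay within 200 nt of the downstream exon. The gathering was thus present in later introns too, at a lower share, and that difference was not tested because the split was chosen after the positions had been seen.

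**Figure D1:**
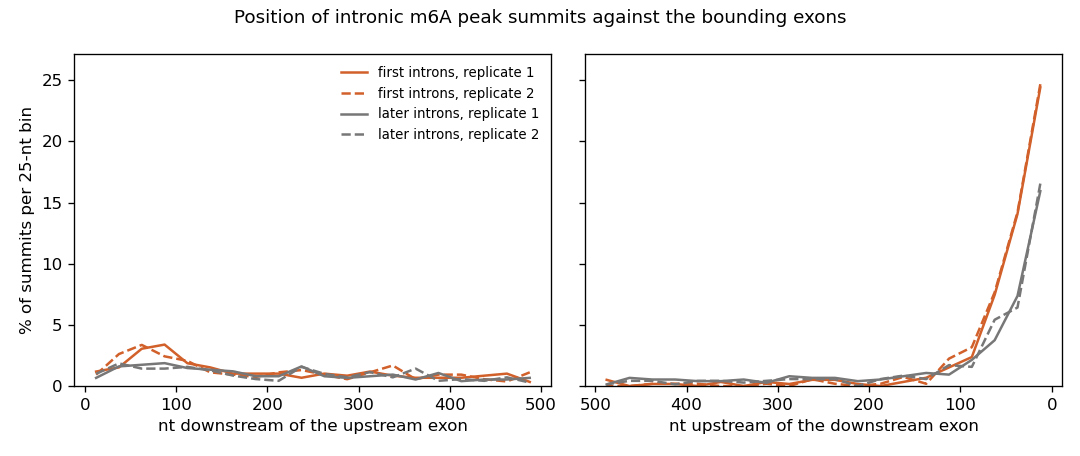
Share of intronic summits per 25-nt bin by distance from the upstream exon (left) and from the downstream exon (right), for first and later introns in each replicate. In the last 25 nt before exon 2 lie 24.4% and 24.7% of first-intron summits, against 15.9% and 16.5% for later introns, while the first 25 nt after exon 1 hold 1.19% and 0.935%.

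The members were therefore described in 3 groups by position. Those within 200 nt upstream of exon 2 form the exon 2 side (300 and 284). The remaining ones within 200 nt of exon 1 form the exon 1 side (30 and 26), and all others are interior (260 and 225). Summits in short introns that lay within 200 nt of both exons, such as that of Polb, thus count under the exon 2 side. Summits of the exon 2 side lay a median of 28 and 29.5 nt from exon 2. Their peaks were narrow, with median widths of 212 and 214 bp against 299.5 and 328 bp for interior peaks, and no peak in either list was below 200 bp. Of the 300 and 284 peaks, 288 and 275 reached into exon 2, and the median end lay 51 nt inside that exon in both replicates.

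These groups differed in the introns they sat in, which for intron length follows in part from the grouping. An interior summit needs an intron that holds a place more than 200 nt from both exons, and how much this adds was not tested. The host genes of exon 2 side members had a median first intron of 2260.5 and 1916.5 nt, and those of interior members one of 17325.5 and 17309 nt, against 2736.5 nt over all genes with a first intron. The coding sequence began in exon 1 for 66.3% and 68.0% of the exon 2 side hosts and in exon 2 for 29.0% and 24.6%. Over all genes these shares were 61.1% and 29.5%. A further peak with its summit in exon 2 was present in 4 of 300 exon 2 side genes in replicate 1 and in 1 of 284 in replicate 2, and a peak with its summit in exon 1 was present in 44 and 41. Among interior hosts, 19 of 196 genes and 20 of 168 had a summit in exon 2. These counts cannot be compared between the groups, because 288 and 275 exon 2 side peaks already reached into exon 2. That exon had a median length of 141.5 and 131 nt in these genes and no peak was below 200 bp, which left little room for a second one.

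The exon 2 side peaks also rested on more reads. The median number of IP reads at the summit was 48.5 and 44.5, over a background of 9 and 6 control reads. Interior members had a median of 22 and 24 IP reads over 3 control reads in each replicate. The exon 1 side had 29 and 31 IP reads. Fold enrichment, the ratio of IP reads to the local background, had medians of 5.52 and 6.24 on the exon 2 side, 5.63 and 5.93 in the interior and 5.63 and 6.03 on the exon 1 side.

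To ask how well the members were reproduced, overlap with any peak of the other replicate was counted. Of replicate 1 members, 341 of 590 overlapped a replicate 2 peak (57.8%, 53.7 to 61.8), and of replicate 2 members 331 of 535 did (61.9%, 57.6 to 66.0), a mean of 59.8% ± 2.88 (SD, n = 2). The partner was a first-intron peak of the same gene for 308 and 309 of them and had its summit in an exon for 31 and 21. Exonic peaks were found again more often, in 84.2% of 12710 and 86.8% of 12204 peaks (difference -26.4 and -25.0 percentage points, Fisher's exact test, two-sided, adjusted p = 2.09e-48 and 4.65e-44). Later introns lay at 61.8% and 67.9%, and this difference passed the exact test in replicate 2 alone (-4.05 percentage points, adjusted p = 0.168, and -6.03, adjusted p = 0.0419), while a call was required to hold in both. When peaks that overlap an exon were left out on both sides, the mean difference was 0.28 percentage points.

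Reproduction differed by position, which is given as a description. On the exon 2 side 154 of 300 peaks (51.3%, 45.5 to 57.1) and 148 of 284 (52.1%, 46.1 to 58.0) were found in the other replicate. In the interior these were 167 of 260 (64.2%, 58.1 to 70.1) and 164 of 225 (72.9%, 66.6 to 78.6). Without windows that have near-identical copies elsewhere in the genome, the shares were 50.7% and 51.4% on the exon 2 side and 59.3% and 69.9% in the interior, so the groups lay closer together in replicate 1. The order was the same at like numbers of reads. Of exon 2 side peaks with fewer than 20 IP reads, 10.8% were found again in each direction, against 42.0% and 47.7% of interior ones. With 40 to 79 IP reads it was 59.7% and 65.5% against 86.3% and 93.8%. Interior peaks of that depth were near exonic ones, of which 88.8% and 89.0% were found. These read classes keep windows with copies, which made up 27.3% and 32.0% of interior windows and were found again more often than the rest. Later introns had the same order by position. Of their peaks without copies, 53.2% and 59.7% within 200 nt of the downstream exon were found again. In their interior it was 65.3% and 69.9%.

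**Figure D2:**
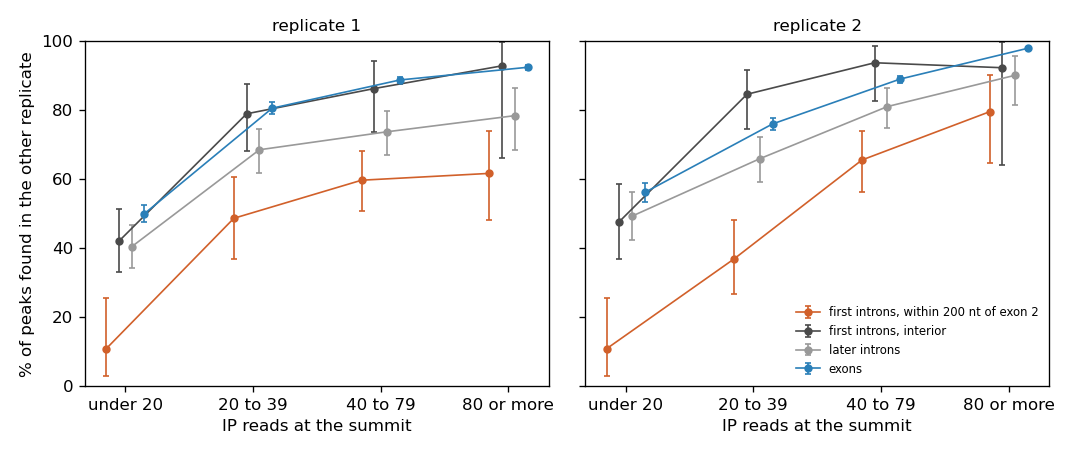
Share of peaks found in the other replicate by the number of IP reads at the summit, with exact 95% intervals, for exon 2 side and interior first-intron peaks, later introns and exons. Exon 2 side peaks lie lowest in every read class of both replicates, while interior first-intron peaks follow the exonic ones. Windows with near-identical copies elsewhere in the genome are included, and later introns are not split by position.

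Members called in both lists could be compared in value. There were 298 one-to-one pairs of overlapping members in the same gene, with a median distance of 14 nt between summits. Fold enrichment of the pairs had a Spearman's rho of 0.56 (Pearson's r of log2 values 0.62), which describes these 2 libraries across 298 pairs that share a caller and a genome. The difference in log2 fold enrichment between replicates had an SD of 0.51, and the values of 94.3% of pairs were within 2-fold of each other. These pairs were selected by being called in both lists and lie in a narrow range of fold enrichment, and no level without a relation was computed. Summits were 8 nt apart in the median on the exon 2 side and 30 nt in the interior.

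**Figure D3:**
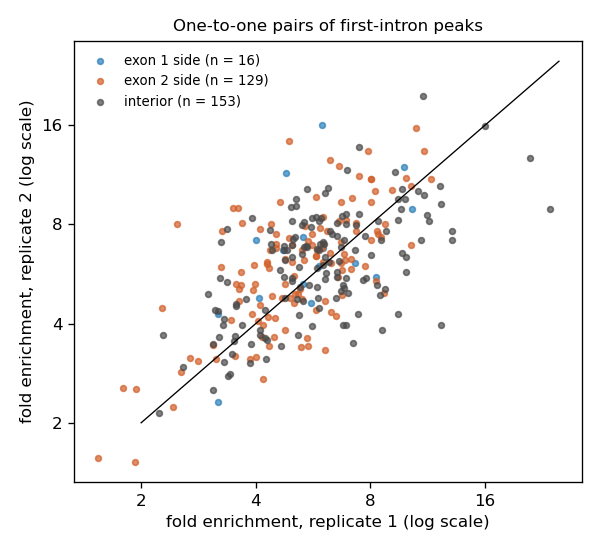
Fold enrichment in replicate 1 against replicate 2 for the 298 one-to-one pairs, both axes on a log scale, coloured by the position of the replicate 1 summit. The line marks equal values, and pairs of all 3 groups lie on both sides of it. In replicate 1 the exon 2 side pairs span 1.54 to 11.6, the exon 1 side pairs 3.17 to 10.3 and the interior pairs 2.23 to 23.7.

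Whether the m6A motif sat at the summits was asked on both strands, since an m6A site of the host transcript must lie on the gene strand. GGAC was present within 50 nt of 38.5% and 42.6% of summits on the gene strand and of 30.7% and 31.0% on the opposite strand (exact paired test of the same windows, two-sided, adjusted p = 0.0103 and 4.06e-04). The strand difference was no longer called with 25 nt on either side (a mean of 4.23 percentage points) or without exons of the full annotation (7.40). It was unevenly spread by position. In the interior GGAC stood on the gene strand of 43.8% and 49.3% of windows and on the opposite strand of 29.6% and 32.0%. On the exon 1 side the values were 60.0% and 73.1% against 33.3% and 42.3%, over 30 and 26 windows with a median GC content of 62.4%. On the exon 2 side they were 31.7% and 34.5% against 31.3% and 29.2%. Later introns showed a like split, which was not tested. In their interior, GGAC stood on the gene strand of 43.5% and 46.4% of windows without near-identical copies. On the opposite strand it was 26.9% and 32.2%. Beside the downstream exon such windows of later introns gave 35.9% and 29.9% against 38.4% and 32.0%.

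Windows of the same length laid end to end over the host introns, outside exons and peaks, gave a level for intronic sequence. They averaged 43.1% GC and were not matched to the summit windows, and most exon 2 side windows reach into exon 2. Of 112564 such windows, 22.2% held GGAC on the gene strand and 23.9% on the opposite strand. The summit windows lay above this on the opposite strand too, at 30.7% and 31.0%. The last window of this length in 19812 first introns, all within the intron, held GGAC in 21% on the gene strand and 27.2% on the opposite strand. The first window held GGAC in 39.3% and 37.1%. On the exon 2 side the motif rose on the gene strand downstream of the summit, past the median place of exon 2. It started 40 to 60 nt downstream of 12.3% of the summits, against 6.34% for the opposite strand. The first 100 nt of exon 2 held GGAC in 40.7% and 44.0% of these genes, against 35.2% of all genes with a first intron.

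**Figure D4:**
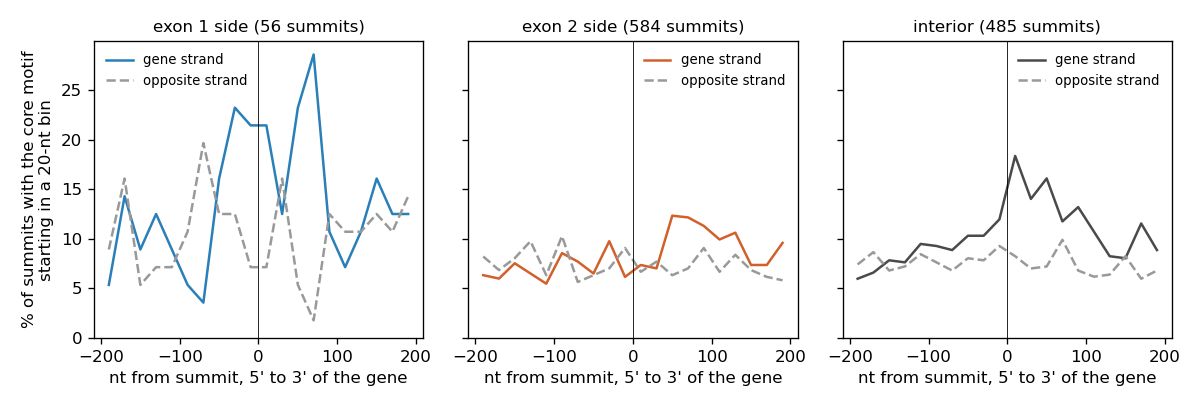
Share of summits with GGAC starting in a 20-nt bin, by distance from the summit along the gene, for the 56 exon 1 side, 584 exon 2 side and 485 interior summits of both lists together. In the interior the gene strand rises to 18.4% in the bin just downstream of the summit against 8.25% on the opposite strand, and on the exon 2 side the gene strand rises further downstream. Many sites are in both lists, so the summits are not independent.

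Poly(A) signals were counted on the gene strand alone. AATAAA or ATTAAA occurred in the 500 nt downstream of 40.4% and 38.2% of interior summits and in 42.8% of 21999 windows of 500 nt laid over the host introns. On the exon 2 side, where that stretch takes in exon 2, it was 23.3% and 23.2%, and on the exon 1 side 10% and 19.2%.

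Members in listed genes of blood cell biology were set beside the share over all genes. A first-intron member was present in both replicates for 271 of 20302 genes (1.33%), and for 132 of the 6515 genes with an exonic peak in both replicates (2.03%). Of 32 stem and progenitor cell transcription factor genes with a first intron, 1 (3.1%) had a member in both replicates. An exonic peak in both was present for 27 of these 32, against 32.1% of all 20302 genes. Of 20 genes for m6A writers, readers and erasers, 1 (5%) had a member in both. None of 39 receptor and cytokine signalling genes, 40 chromatin and DNA methylation regulators, 37 splicing factors and 35 cell cycle regulators had one in both. With a member in a single replicate there were 2, 2, 1 and 0 genes of these last 4 groups. At a share of 1.33%, lists of 20 to 40 genes would hold few such genes or none, and no list was tested.

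Fli1, an ETS transcription factor of blood stem cells and megakaryocytes, held an interior member 8568 nt into its 64417-nt first intron. Its fold enrichment was 7.47 in replicate 1 and 13.7 in replicate 2, from 13 and 22 reads of the IP, with 1 and 0.6 reads expected from the control. The peaks spanned chr9:32532428-32532821 and chr9:32532422-32532757, and the summits were in no exon of the full GENCODE or RefSeq annotation.

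Virma, a large scaffold subunit of the m6A writer complex, held one 524 nt downstream of exon 1, at chr4:11486471-11486877 in replicate 1. Its fold enrichment was 6.92 and 8.59, from 18 and 17 reads of the IP against a background of 2 and 1. Among the other genes of that group Fto, an m6A demethylase, had members in replicate 1 alone.

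Ank1 encodes ankyrin 1, which ties the red cell membrane to the spectrin skeleton. Its member lay at chr8:23027999-23028678 in replicate 1, with the summit on the same base in both replicates. Fold enrichment was 9.69 and 10.2, from 51 and 42 reads of the IP against 5 and 3 of background. Replicate 2 had a second, weaker member 2416 nt upstream, with a fold enrichment of 4.18 on 13 IP reads. The erythroid genes Kel, Rhd and Uros had members in replicate 1 alone.

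The one-to-one pairs with the largest −log10 q were of several kinds. Selenof, a selenoprotein of the endoplasmic reticulum, had its summits 12 and 13 nt before exon 2, with a fold enrichment of 6.70 and 9.35 on 111 and 107 IP reads. Etfb, the beta subunit of the electron transfer flavoprotein, had them 20 and 17 nt before exon 2, with 7.10 and 6.26 on 124 reads in each replicate. Eif2b3, a subunit of the exchange factor of the initiation factor eIF2, gave 11.6 and 11 on 61 and 68 IP reads, 23 and 15 nt before exon 2. S100a11, a calcium-binding protein, gave 7.14 and 9.64 at 17 and 24 nt. Serinc3, a membrane protein of the serine incorporator family, gave 4.53 and 6.96 at 40 and 38 nt, within a RefSeq exon of Serinc3 itself. Their peaks were between 200 and 253 bp wide and ended 41 to 90 nt inside exon 2.

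Ell2, an elongation factor of RNA polymerase II, held a member of another kind. Its peaks spanned chr13:75708109-75708499 and chr13:75708109-75708505, and the summits lay 533 and 494 nt downstream of exon 1. Fold enrichment was 16.0 and 15.9, from 57 and 49 reads of the IP against 3 and 2 of background.

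Trappc13, a subunit of a complex of vesicle transport, held wide peaks of 906 and 937 bp with a fold enrichment of 5.59 and 7.86, on 117 and 113 IP reads. Those summits lay in an exon of a processed transcript of Trappc13 in the full annotation and of another gene, Shld3, in RefSeq. Ttll12, a tubulin tyrosine ligase-like protein, held peaks of 1339 and 1352 bp on its exon 1 side, 95 and 27 nt from exon 1, with 5.99 and 6.76. That position is in an exon of Gm52182 in RefSeq. Both are thus places where the choice of annotation decides whether the peak counts as intronic.

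Among the remaining pairs with at least 20 IP reads in each replicate, the 5 with the largest lower fold enrichment were in Ndufs4, Polb, Anxa3, Asb3 and Nsf. Ndufs4, a subunit of mitochondrial complex I, gave 21 and 12.7 on 42 and 39 IP reads, in an exon of another protein-coding transcript of the gene and with 5 and 4 near-identical copies elsewhere in the genome. Polb, the polymerase of base excision repair, gave 11 and 13.3, in an intron of 196 nt in which the summit lay within 200 nt of both exons. Anxa3, an annexin, gave 10.6 and 15.7 on 28 and 22 IP reads, and Asb3, a SOCS box protein, 12.2 and 10.5 on 24 and 21. Nsf, an ATPase of membrane fusion, gave 10.2 and 10.5 on 27 and 21. The Asb3 windows were 78.2% and 71.3% soft-masked, the mark of repeats in the reference, though the search for near-identical copies found none. All 5 had a background of at most 3 reads, so that 1 read more or less of background moves these values.

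**Figure D5:**
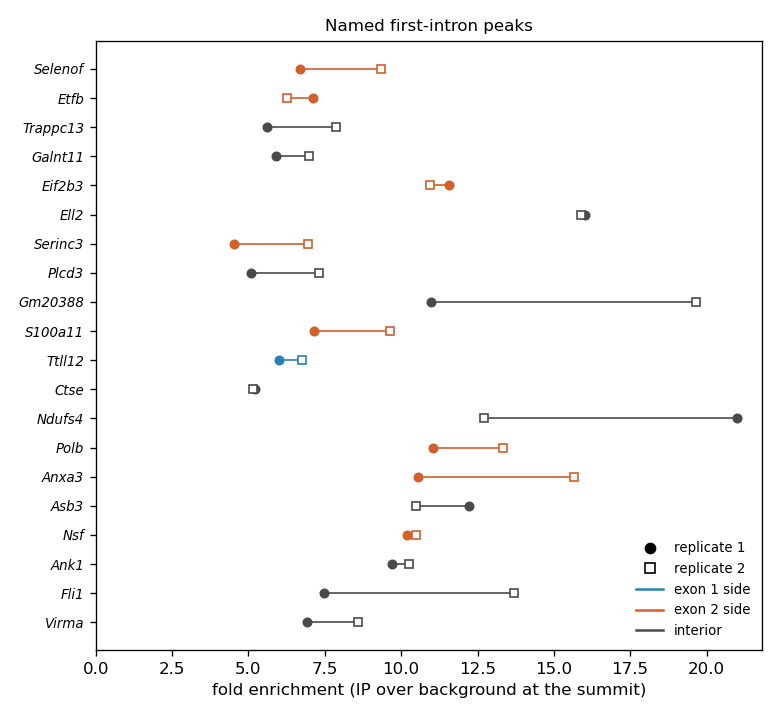
Fold enrichment at the summit in replicate 1 (filled circles) and replicate 2 (open squares) of the 17 pairs named by −log10 q or fold enrichment, in that order, followed by Ank1, Fli1 and Virma. Ell2, Ctse and Nsf are nearly equal in the replicates, and Gm20388, Ndufs4 and Fli1 are farthest apart.

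Strong members could also be missing from the other list. In replicate 1, Bop1, a factor of ribosome assembly, had a −log10 q of 55.8 and a fold enrichment of 7.55 on 112 IP reads, 11 nt before exon 2. Slfn3, of the Schlafen family, had 47.2 and 24.1 on 33 IP reads against a background of 0.469, in the interior of its intron. In replicate 2, Mrpl12, a mitochondrial ribosomal protein, had 41.9 and 4.83 on 134 IP reads, 8 nt before exon 2, and Fam213a had 40.7 and 8.83 on 75 IP reads, 4 nt before it. None of these 4 overlapped a peak of the other replicate, and 3 of the 4 lay on the exon 2 side.

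Some interior members were copies of each other. When the sequence from 50 nt before to 50 nt after each summit was searched against the assembled chromosomes, 71 of 260 interior windows in replicate 1 (27.3%) and 72 of 225 in replicate 2 (32.0%) had another match of at least 95% identity over at least 95% of their length. On the exon 2 side this held for 8 of 300 and 6 of 284. More than 20 such copies were found for 43 and 47 interior windows. How reads with several placements were treated is not given in the sources used here, so such peaks cannot be assigned to their host gene. Later introns held such copies too, for 34.6% of 471 and 33.4% of 434 interior windows.

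Interior members with a copy were found again in 55 of 71 cases (77.5%) in replicate 1 and in 57 of 72 (79.2%) in replicate 2. Those without a copy were found in 112 of 189 (59.3%) and 107 of 153 (69.9%). The motif contrast was present without the copies, with GGAC in 42.3% and 49.0% of interior windows on the gene strand against 29.6% and 32.0% on the opposite strand.

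In all, 51 members of replicate 1 and 47 of replicate 2 shared a run of at least 40 identical nt with a member in another gene, in 16 families over 41 genes. The 3 largest families met in the hosts Ctse, Galnt11, Plcd3 and Ppat, with Gm20388, Pik3c2a or Grk5 beside them. Galnt11, Plcd3, Ctse and Gm20388 owed to these their place among the 12 pairs with the largest −log10 q. Galnt11 encodes an enzyme of O-glycosylation, Plcd3 a phospholipase C and Ctse the protease cathepsin E. In replicate 1 the strongest peak had 108 IP reads in Galnt11, 115 in Plcd3 and 123 in Ctse, and in replicate 2 it had 109, 114 and 115. The window of Galnt11 was the same, letter for letter, as the opposite strand of that of Plcd3, and each of the 3 had 36 copies elsewhere. Where it could be settled, the shared sequence ran in one direction relative to the gene in Ctse, Galnt11 and Gm20388 and in the opposite one in Plcd3 and Ppat. The annotation used here does not name the family.

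Gm20388, a predicted gene of chromosome 8, held 25 members in replicate 1 and 21 in replicate 2, more than any other gene. Its first intron of 4384418 nt spans many other genes, and 9 and 8 of these summits lay in a RefSeq exon of another gene, such as Zdhhc7, Gse1, Cbfa2t3 and Fanca. The strongest, at chr8:123169839-123170450 in replicate 1, had a fold enrichment of 11 and 19.6 on 58 and 65 IP reads, and its replicate 1 window had 23 copies. Kif24, a kinesin, and Plcd3 followed with 8 members each over both replicates. Without Gm20388 the exon 2 side held 53.1% and 55.3% of members.

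Other annotations turned part of the members into exonic peaks. In the full GENCODE M21 annotation, which adds partial and non-coding transcripts, 144 of 590 summits (24.4%) and 110 of 535 (20.6%) lay in an exon. In the own gene these were exons of retained-intron transcripts for 66 and 53 summits, of processed transcripts for 42 and 23 and of other protein-coding transcripts for 41 and 31, where a summit can count under several types. The shares in later introns were 22.9% and 23.8%, and the difference did not pass the exact test (adjusted p = 0.517 and 0.206). Either the full or the RefSeq annotation gave an exon for 33.7% and 31.2% of members. On the exon 1 side it was 70.0% and 61.5%, on the exon 2 side 27.7% and 26.4% and in the interior 36.5% and 33.8%.

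Fold enrichment was compared with that of peaks in later introns and in exons, and it was higher than in both. The median was 5.58 and 6.10, against 5.07 and 5.35 in later introns and 4.18 and 4.39 in exons. The share above the median of all peaks of the list was 71.4% and 71.0%, against 63.3% and 60.8% in later introns (Fisher's exact test, adjusted p = 0.00388 and 4.31e-04) and 45.0% and 45.2% in exons (adjusted p = 5.71e-36 and 1.50e-31). With summits within 200 nt of an exon left out on both sides, the difference from later introns averaged 4.51 percentage points and was no longer called, and 4 other alternatives also ended that call. Among peaks with a fold enrichment of at least 4, the mean difference from exons was 7.78 percentage points (adjusted p = 0.0487, Fisher's exact test). Members had fewer reads than exonic peaks, with medians of 36 and 34 IP reads against 68 and 66, and their background was 6 and 4.40 reads against 17.0 and 13.0. With fewer than 20 IP reads the median fold was 5.87 and 7.16, against 5.67 and 6.04 in later introns and 5.81 and 6.36 in exons. With 80 or more it was 4.51 and 4.61, against 3.53 and 3.68 in later introns and 3.35 and 3.42 in exons. IP and input differ in their RNA label and the control is not given, and the part of either limit was not tested.

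Summits within 500 nt of the upstream exon made up 24.4% and 25.4% of first-intron members and 20.1% and 19.4% of later-intron peaks. The difference of 4.33 and 6.02 percentage points passed the exact test in replicate 2 (adjusted p = 0.0797 and 0.0196) and was not called over both. The reference marks repeats by soft-masking, which covered 12.3% and 11.8% of the mean exon 2 side window and 26.9% and 30.8% of the mean interior window, where the host introns averaged 28.2%.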

How the data were processed

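m6A meRIP-seq reads of 2 biological replicates were placed on GRCm38 (mm10 in the labels) with HISAT2, and the authors called peaks in each replicate with MACS2 2.1.1.20160309 in nomodel mode. The control library, threshold, genome size and extension length, and the treatment of reads with several placements, are not given in the sources used here. MACS2 extends reads along the genome and does not follow splice junctions, and the part of this in the results was not tested. The deposited columns are a score, the fold enrichment (a ratio), and −log10 p and −log10 q per peak, beside the summit offset. Library totals are unknown. Reads at a summit were computed from fold enrichment and p-value (1 added to each term, Poisson tail), and came out whole for 100% of peaks within 0.001 in −log10 p. The method was tested on simulated data.

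Summits were classed with GENCODE M21 basic, and copies were sought with blastn 2.17.0 (Python 3.11.15, scipy 1.17.1 otherwise). Intervals of shares are 95% Clopper-Pearson intervals and take in counting error alone. Fisher's exact tests (two-sided, per replicate) and the exact paired test of GGAC were adjusted together over 14 tests by Benjamini-Hochberg, and a result was called when its adjusted p was below 0.05 in both replicates. Peaks are not replicates, so p-values describe these libraries. Members and gene lists were chosen with earlier results of these data known. Named were the 12 one-to-one pairs with the largest lower −log10 q, the 5 next pairs with at least 20 IP reads and the largest lower fold enrichment, the 3 genes with most members, the 2 strongest members per replicate without a partner, and listed genes with members in both, of which 1 result and the count of erythroid genes are not reported here. Sequences were printed for 8 pairs of the first 2 kinds and 3 listed genes, leaving out windows in an exon of another annotation or with copies. The 3 position groups, the search for copies and the RefSeq comparison were added after the values had been seen, and the groups were given no test.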

Additional observations from a re-analysis of the deposited data

How the results depend on the processing

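Over 89 recomputed values, 65 were counted as the same. For the share found again this meant a move below the SD of the 2 replicates (2.88). The count of genes had to stay within a set fold range of 271, and 199 genes with a minimum fold of 4 still did. A comparison had to keep its direction and its side of the threshold. The comparisons with exons kept both in all alternatives, but with a minimum fold of 4 the difference in fold enrichment fell from 26.1 to 7.78 percentage points (adjusted p = 0.0487, Fisher's exact test). With peaks that overlap an exon left out, 116 genes had a member in both replicates in place of 271, 68.0% of members were found again, the difference from later introns in that share reversed to 0.283 percentage points, and that in fold enrichment fell short at 6.38. Without summits within 200 nt of an exon (added after seeing the data) these were 116 genes, 69.0% and, for fold enrichment, 4.51. The fold enrichment difference from later introns also fell short with exons of the full annotation left out (7.57), a minimum −log10 q of 5 (5.76) and a minimum fold of 4 (7.27). With that last setting 52.5% of members were found again, the share near the upstream exon differed by 10.7 and passed, and the full-annotation share reversed to 1.63. The share found was 54.5% with 50% reciprocal overlap and 52.6% with summits within 100 bp. The strand difference of GGAC fell short without exons of the full annotation (7.40) and with 25 nt on either side (4.23). The share near the upstream exon passed with summits in another gene left out (5.69), at 200 nt (4.04), at 1000 nt (5.85) and without Gm20388 (6.23, added after seeing the data). Leaving out a replicate gave -6.03 to -4.05 for the share found against later introns, 4.33 to 6.02 for the share near the upstream exon and -3.26 to 1.52 for the full-annotation share. The causes were not tested. No paired analysis was possible because peaks of the input samples were not analysed here, so IP numbers have no partner. Members rest on a median of 36 and 34 IP reads, and where the background is near 1 control read the fold enrichment is imprecise.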
